A study of Mus musculus with 4 samples.

Results

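The genes of the SETDB1 and HUSH silencing machinery were examined for chromatin accessibility in mouse embryonic stem cells (ESCs). They were chosen by name: Setdb1, Trim28, Atf7ip, Morc2a, Mphosph8, Fam208a (the name that the annotation used here gives the gene of TASOR), Pphln1, Suv39h2, Ehmt1 and Ehmt2, 10 of the 21938 protein-coding genes of GENCODE mouse release 21. E14 cells, a mouse ESC line, were grown in medium with serum and LIF and infected with a pLKO lentivirus that carries a short hairpin RNA. Puromycin selection lasted 2 days, and the cells were taken for the assay after as long again. ATAC-seq, in which a transposase inserts adapters into accessible DNA, gave 1 library with a hairpin against GFP (shGFP) and 3 with a hairpin against luciferase (shLuc 1, 2 and 3). Neither target is a mouse gene, so all 4 libraries are controls, none of the 10 genes was knocked down in them, and libraries with other hairpins were not analysed here. The labels do not say whether the shLuc libraries came from separate cultures.

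SETDB1 is a methyltransferase that places the trimethyl mark on lysine 9 of histone H3 (H3K9me3), and in ESCs it keeps endogenous retroviruses silent. TRIM28, also called KAP1, is bound by KRAB zinc finger proteins at specific sequences and brings SETDB1 there, while ATF7IP binds SETDB1 and keeps it stable and in the nucleus. The HUSH complex, made of TASOR, MPP8 and periphilin, binds H3K9me3 and works with SETDB1 and with the ATPase MORC2 to silence inserted transgenes and young retroelements. SUV39H2 places H3K9me3 at pericentromeric heterochromatin, and EHMT1 (GLP) and EHMT2 (G9a) form a complex that places the mono- and dimethyl marks on the same residue.

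The data were 4 lists of peaks, intervals in which a peak caller found more reads than background, with a start and an end and no height or score. The shGFP list held 41943 peaks and the shLuc lists between 17860 and 41401, the shortest being that of shLuc 1. The depth of the libraries is unknown from the lists, so a gene with no listed peak is not shown to lie in closed chromatin. Whether the lists as analysed here hold every peak that was called is also unknown, which bears on each gap, each marker without a peak and the counts per library. With 1 library against 3, an exact permutation test cannot give a p below 0.25, so values are given per library and no test was run. Of 8 ESC marker genes, all 4 lists gave Zfp42 a peak at most 1 kb from a start, Klf4 and Esrrb had one in 2 libraries each, and Pou5f1, Nanog, Sox2, Tdgf1 and Dppa4 had none listed. Of 4 genes of other lineages, Sox17 had one in all 4 libraries, Myod1 in 1, and Gata4 and Alb in none. These markers did not set the labelled cell type apart in the lists.

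Most of the 10 genes had a peak at a promoter in every library. Peaks were called promoter peaks where their nearest base was at most 1 kb from a transcript start of the gene. All 10 genes had one in shGFP, where 60.7% of all protein-coding genes did. Of shLuc 1, 2 and 3, the lists gave one to 8, 10 and 8 genes (mean 8.67 ± 1.15, SD, n = 3), against 46.8%, 60.3% and 55.1% of protein-coding genes. In all 4 libraries 7 of the 10 had one, against 42.5% of protein-coding genes, and 0 of the 10 had none in any library, against 35.3%. The 3 exceptions were Setdb1, with no listed peak in shLuc 1, Trim28, with none in shLuc 3, and Ehmt2, with a peak near an internal start in shGFP and shLuc 2 alone. With each list held to its 17860 widest peaks, the length of the shortest list, 6 genes had one in all 4 libraries, and Setdb1 had one in 1 library, shLuc 3, Atf7ip in 3 and Ehmt2 in 0.

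**Figure D1:**
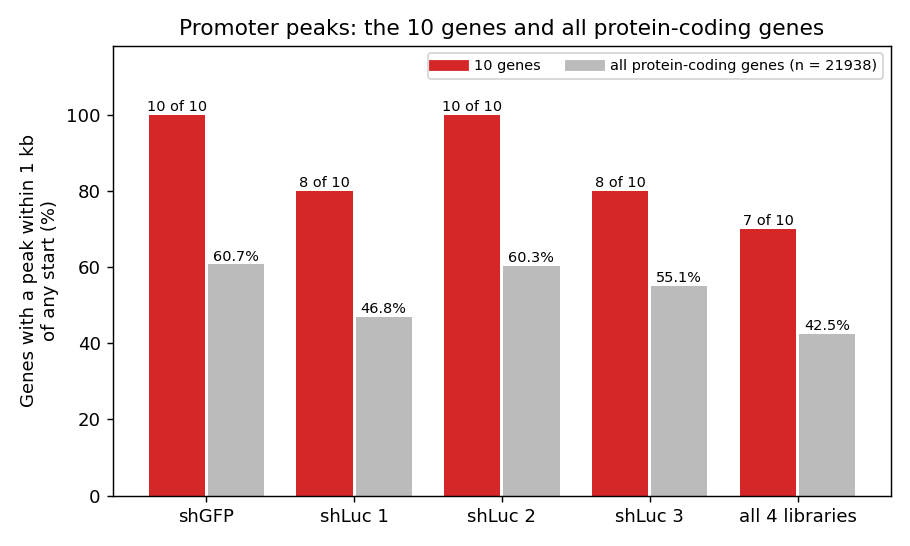
Share of genes (vertical axis, percent) with a peak within 1 kb of any start in each library and in all 4 libraries; red bars are the 10 genes, labelled with counts, and grey bars are all 21938 protein-coding genes. The 10 genes stand above the grey bar in each library, with 7 of 10 against 42.5% in all 4.

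The difference was smaller against promoters of like base composition. The most upstream start that RefSeq gives for a gene, on its GRCm38.p6 assembly, was used as the main start, and 16810 protein-coding genes could be matched to such a start. At that start 7 of the 10 genes had a peak within 1 kb in all 4 libraries, against 41.5% of matched genes, and 1, Ehmt2, had none in any library, against 37.8%. All 10 have CpG-rich promoters, meaning at least 50% GC and an observed over expected CpG ratio of at least 0.6 in the 300 bases from 250 before to 50 after the start, which 47.3% of matched genes had. Among the genes with CpG-rich promoters 69.1% had a peak at the start in all 4 libraries, so 7 of 10 was close to the share for promoters of this kind. Only 6.26% of them had none in any library, the class into which Ehmt2 fell.

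**Figure D2:**
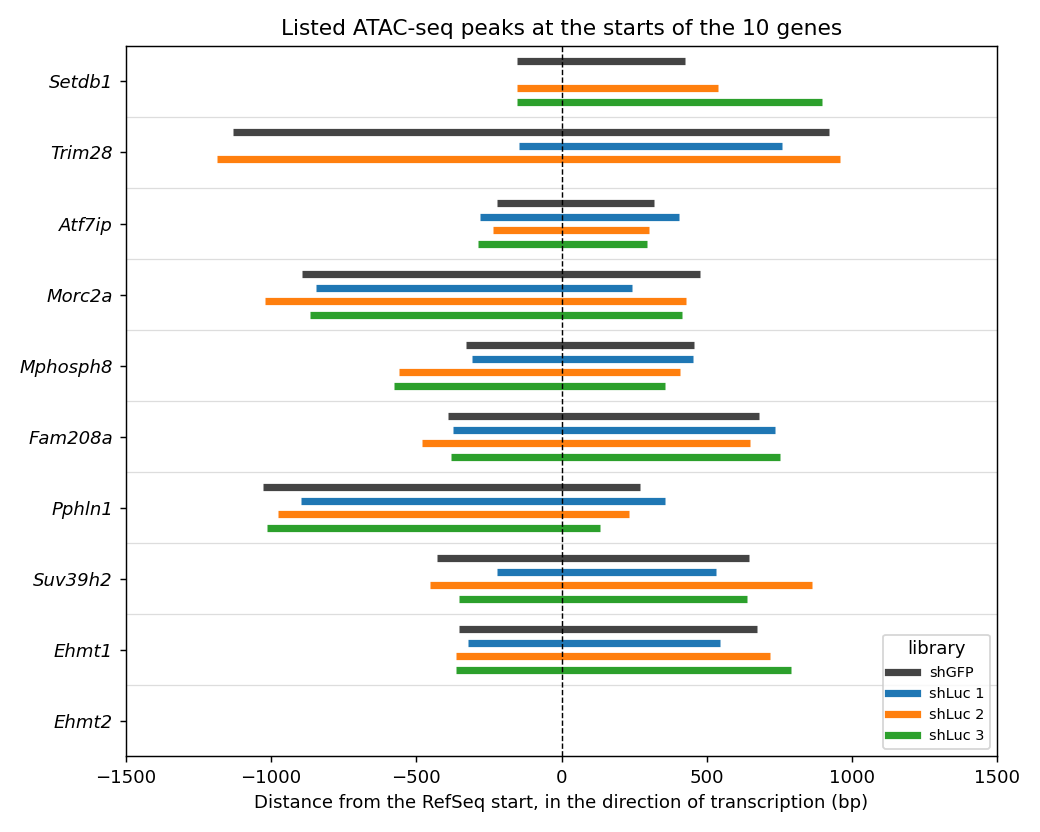
Peaks at the main start of each gene (rows) in each library (colours), drawn as bars against the distance from the start in the direction of transcription in bp; the dashed line is the start. Setdb1 lacks a bar for shLuc 1, Trim28 lacks one for shLuc 3 and Ehmt2 has none.

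Setdb1 (ENSMUSG00000015697, mm10 chr3:95323525-95357202, minus strand), the methyltransferase itself, had a peak across its start in 3 libraries. The peak was 580 bp wide in shGFP, 692 bp in shLuc 2 and 1051 bp in shLuc 3. Its upstream edge lay 154, 152 and 154 bp before the start in these libraries, a range of 2 bp, whereas its downstream edge lay 425, 539 and 896 bp after the start, a range of 471 bp. So the peaks shared their upstream edge nearly to the base and differed on the side of the gene. In shLuc 1 the nearest listed peak was 41543 bp from the start. This library, with the shortest list, held no peak over 118.6 kb around the gene (chr3:95315660-95434231), where shGFP, shLuc 2 and shLuc 3 listed 3, 4 and 1 peaks. How common gaps of this length are in its list was not computed. Of 896 protein-coding genes whose shGFP peak at the main start was no wider than that of Setdb1, 444 had a peak at that start in shLuc 1, or 49.6% (95% Wilson interval 46.3 to 52.8, counting error over genes only).

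The side on which the Setdb1 peaks differed is duplicated. Bases chr3:95355510-95357192, which begin 10 bp after the main start, aligned in inverted orientation with chr3:95427568-95429246, 70.4 kb away on the far side of the start, with 98.9% identity over 1683 aligned columns, 14 mismatches and 4 gap columns. The copy lies at Gm4349, annotated as a long noncoding RNA gene. In the study's methods, reads that aligned equally well at several places were each given a random choice of those places, so reads from identical stretches cannot be assigned to Setdb1 or to the copy. Of the words of 50 bases in the peaks after the start, 79.3% in shGFP, 60.9% in shLuc 2 and 69.9% in shLuc 3 occurred again within 150 kb, against 0% of the words before the start. The shLuc 2 list also held a peak at the copy (chr3:95427161-95427925, 765 bp, 358 of them in the copy), and the other 3 lists held none there. The part of the duplication in the differing edges was not tested, and the bases before the start are not duplicated at the copy.

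**Figure D3:**
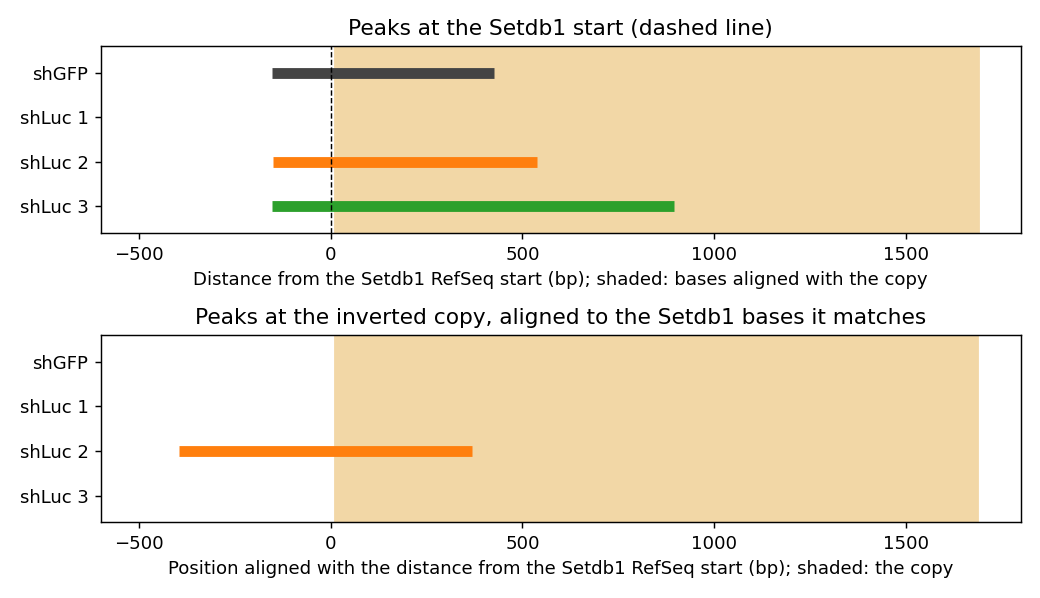
Peaks at the Setdb1 start (upper panel) and at its inverted copy (lower panel, turned and aligned to the bases it matches), with the distance from the Setdb1 start in bp on the horizontal axis and a row per library; shading marks the bases that align. The upper bars of 3 libraries begin within 2 bp of each other outside the shading and end at different points inside it, and shLuc 2 alone has a bar in the lower panel.

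The 250 bases before the Setdb1 start (RefSeq, GRCm38.p6, chr3:95357203-95357452, minus strand) are shown because the unduplicated edge of the peak lies in them: the peaks of shGFP and shLuc 3 cover the last 154 bases and that of shLuc 2 the last 152. Capitals mark the NFY box CCAAT, the ETS core CCGGAAG and the SP and KLF box GGGCGG, read on either strand, and both ETS cores fell within the peaks.
Setdb1: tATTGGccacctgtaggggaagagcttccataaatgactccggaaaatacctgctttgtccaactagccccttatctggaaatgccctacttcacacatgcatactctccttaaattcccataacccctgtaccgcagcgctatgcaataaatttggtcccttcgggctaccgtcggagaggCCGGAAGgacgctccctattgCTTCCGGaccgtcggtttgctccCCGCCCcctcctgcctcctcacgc

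Trim28 (ENSMUSG00000005566, chr7:12999114-13031035, plus strand), the corepressor that brings SETDB1 to KRAB zinc finger proteins, had the widest promoter peak of the 10 genes in shGFP and shLuc 2 and no listed peak in shLuc 3. The peak was 2053 bp wide in shGFP, 907 bp in shLuc 1 and 2143 bp in shLuc 2. Its width in shGFP and shLuc 2 was at or above that of 99.2% and 99.5% of the protein-coding genes with a promoter peak in the same library, and in shLuc 1 of 74.9%. The downstream edges were closer together, 922, 759 and 958 bp after the start, while the upstream edges lay 1130, 147 and 1184 bp before it, so that the narrower peak of shLuc 1 lacked the upstream side. The shLuc 3 list held no peak over 75.5 kb (chr7:12978628-13054123), a stretch with CpG-rich starts of 4 protein-coding genes, Chmp2a, Trim28, Ube2m and Zbtb45, in which shGFP, shLuc 1 and shLuc 2 listed 3, 4 and 2 peaks. Of 72 protein-coding genes whose shGFP peak at the main start was at least as wide as that of Trim28, 60 had a peak there in shLuc 3, or 83.3% (95% Wilson interval 73.1 to 90.2), and Trim28 was among the 12 that did not. Why this library lists no peak at Trim28 was not tested, and how common gaps of this length are in its list was not computed. The annotated gene extends to position -25038 from the main start through a noncoding transcript, Trim28-210, and no list held a peak by that start.

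The bases before the Trim28 start (RefSeq, GRCm38.p6, chr7:13023902-13024151, plus strand) are shown because the peaks of shGFP and shLuc 2 cover all 250 of them and that of shLuc 1 only the last 147. Capitals mark GGGCGG, the box bound by SP and KLF factors, on the opposite strand.
Trim28: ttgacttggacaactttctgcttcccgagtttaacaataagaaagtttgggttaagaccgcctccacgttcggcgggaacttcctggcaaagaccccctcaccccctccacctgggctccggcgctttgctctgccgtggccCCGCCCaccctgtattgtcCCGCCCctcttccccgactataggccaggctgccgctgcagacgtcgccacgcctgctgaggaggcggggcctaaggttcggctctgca

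Atf7ip (ENSMUSG00000030213, chr6:136506167-136610862, plus strand) had a narrow peak at its main start and a further peak inside the gene, each in all 4 libraries. At the main start the peak was 539 bp wide in shGFP and 685, 538 and 583 bp in shLuc 1, 2 and 3, and the shGFP value lay within the SD of the shLuc libraries. The inner peak lay at the start of transcript Atf7ip-207, a protein-coding transcript that begins 14076 bp downstream of the main start, and was 1252 bp wide in shGFP and 524, 664 and 1091 bp in shLuc 1, 2 and 3. Thus shLuc 1 had the widest peak at the main start and the narrowest at the inner one. The sites differed in base composition as well. The merged region at the main start (chr6:136518562-136519256) had 57.3% GC and an observed over expected CpG ratio of 1.07, whereas the merged inner region (chr6:136532007-136533258) had 42.7% GC and a ratio of 0.194. No list held a peak by any other start of Atf7ip.

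The 3 subunits of HUSH had a peak at the main start in all 4 libraries. Fam208a (ENSMUSG00000040651, chr14:27428834-27483555, plus strand), which encodes the scaffold TASOR, had peaks of 1069 bp in shGFP and 1108, 1131 and 1131 bp in shLuc 1, 2 and 3. These were the most even of the 7 genes with a peak in all libraries, with a widest over narrowest ratio of 1.06. Of the 6969 protein-coding genes with a peak at the main start in all libraries, 0.732% had a ratio that low. Since Fam208a was picked as the lowest of the 7, this share overstates how unusual its ratio is. The shGFP peak was narrower than the shLuc mean by 54.3 bp, more than the shLuc SD of 13.3 bp. Among the 7 genes this was 1 of 2 differences larger than the SD. The peaks reached 390, 374, 481 and 379 bp upstream of the start and 678, 733, 649 and 751 bp downstream of it in shGFP and shLuc 1, 2 and 3.

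The bases before the Fam208a start (RefSeq, GRCm38.p6, chr14:27428584-27428833, plus strand) are shown because this gene had the most even peak widths. That ranking is among the genes with a peak at the main start in all libraries. The peak covers all 250 in each library, as it also does for Morc2a, Mphosph8, Pphln1 and Ehmt1. Capitals mark CCAAT and GGGCGG, here on the opposite strand.
Fam208a: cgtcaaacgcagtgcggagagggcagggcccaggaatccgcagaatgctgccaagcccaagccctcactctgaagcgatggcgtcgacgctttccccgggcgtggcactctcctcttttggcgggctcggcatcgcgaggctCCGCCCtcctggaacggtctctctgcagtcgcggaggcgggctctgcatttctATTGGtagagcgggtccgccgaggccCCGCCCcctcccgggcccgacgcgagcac

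Mphosph8 (ENSMUSG00000079184, chr14:56668248-56697430, plus strand), whose product MPP8 reads H3K9me3 through a chromodomain, had peaks of 785 bp in shGFP and 764, 968 and 936 bp in shLuc 1, 2 and 3. The shGFP and shLuc 1 peaks reached 328 and 309 bp upstream of the start and those of shLuc 2 and 3 reached 558 and 578 bp, so the libraries fell into pairs by the upstream edge. Pphln1 (ENSMUSG00000036167, chr15:93398350-93491510, plus strand), which encodes periphilin, had peaks of 1298 bp in shGFP and 1256, 1208 and 1147 bp in shLuc 1, 2 and 3. Here shGFP was wider than the shLuc mean by 94.3 bp, with a shLuc SD of 54.6 bp, and was the widest of the 4. The Pphln1 peak lay mostly before the start, reaching 1027, 898, 976 and 1012 bp upstream and 270, 357, 231 and 134 bp downstream. Zcrb1, a protein-coding gene on the opposite strand, starts at positions -16 to -77 from the Pphln1 start, so this peak covers the promoters of both genes and cannot be given to either.

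Morc2a (ENSMUSG00000034543, chr11:3649191-3690477, plus strand), the mouse gene of the ATPase MORC2, had, of the 7 genes with a peak at the main start in all libraries, the widest in shGFP, shLuc 2 and shLuc 3. The peaks measured 1370 bp in shGFP and 1087, 1450 and 1279 bp in shLuc 1, 2 and 3, and the shGFP value lay within the shLuc SD of 181.6 bp. All 4 peaks were centred upstream of the start, at positions -301 to -209.5. Tug1, a long noncoding RNA on the opposite strand, has starts at positions -1907 to 236 from the Morc2a start, inside or beside the peak. Pphln1 and Morc2a were the genes with every peak centre upstream of the main start. For Morc2a this depends on the start chosen, since its protein-coding transcript Morc2a-202 starts at position -246, among these centres. Whether the starts of Zcrb1 and Tug1 bear on the placement was not tested. The peaks of Setdb1, Atf7ip, Fam208a, Suv39h2 and Ehmt1, 5 of the 9 genes with a peak at the main start in 3 or more libraries, were all centred downstream of it, and those of Trim28 and Mphosph8 on either side. The shares of all protein-coding genes with peaks centred on each side were not computed.

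Starts of noncoding genes on the opposite strand also lay by other members. Gm4032, a transcribed pseudogene, has starts at positions -124 to -201 from that of Mphosph8, Gm44140, a lncRNA of a bidirectional promoter, starts 180 bp inside Atf7ip, and Gm37500, an unclassified transcript, starts 1072 bp inside Setdb1. Thus 5 of the 10 genes had another gene with a start within 1 kb of a promoter peak, against 33.9% of the 14195 protein-coding genes with a promoter peak in any library. The assay has no strand, so the peaks at these pairs cannot be told apart.

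Suv39h2 (ENSMUSG00000026646, chr2:3455815-3475031, minus strand) had the most uneven peaks of the 7 genes with one in all libraries. They were 1076 bp wide in shGFP and 755, 1314 and 993 bp in shLuc 1, 2 and 3, a widest over narrowest ratio of 1.74. The shGFP value was 55.3 bp above the shLuc mean, against an SD of 280.5 bp, so the difference between hairpins was smaller than the spread among shLuc libraries. The peaks reached 429, 223, 452 and 354 bp upstream and 646, 531, 861 and 638 bp downstream in shGFP and shLuc 1, 2 and 3, so that shLuc 1 was the shortest and shLuc 2 the longest on both sides. Ehmt1 (ENSMUSG00000036893, chr2:24789928-24919614, minus strand), the gene of GLP, had peaks of 1029 bp in shGFP and 868, 1082 and 1153 bp in shLuc 1, 2 and 3. The shGFP value differed from the shLuc mean by -5.33 bp, and the upstream edges of the 4 peaks lay within 41 bp of each other. An inner start of Ehmt1, that of the protein-coding transcript Ehmt1-218, lies 55686 bp downstream of the main start. Narrow peaks of 316 bp in shLuc 1 and 279 bp in shLuc 3 lay 471 and 481 bp from it, and shGFP and shLuc 2 listed none there, so this start split the libraries evenly.

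The bases before the Suv39h2 start that lie outside its annotated exons (RefSeq, GRCm38.p6, chr2:3475032-3475236, minus strand) are shown because this was the only one of the 10 promoters with TGACGTCA, the word that CREB and ATF factors bind. Capitals mark it and GGGCGG, the latter on the opposite strand.
Suv39h2: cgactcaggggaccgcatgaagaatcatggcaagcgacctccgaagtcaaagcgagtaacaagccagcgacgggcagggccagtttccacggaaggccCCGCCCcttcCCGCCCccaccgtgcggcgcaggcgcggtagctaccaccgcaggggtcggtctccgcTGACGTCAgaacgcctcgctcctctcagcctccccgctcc

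Ehmt2 (ENSMUSG00000013787, chr17:34898469-34914052, plus strand), the gene of G9a, was the member with no listed peak at its main start in any library. The nearest listed peak was 4408 bp from that start in shGFP, 32619 bp in shLuc 1, 12644 bp in shLuc 2 and 32564 bp in shLuc 3. The 4 lists shared a stretch of 52.0 kb with no peak (chr17:34850860-34902881), which holds the CpG-rich starts of Ehmt2 and Zbtb12. How common such stretches are in the lists was not computed. The promoter peaks counted for Ehmt2 lay near the start of Ehmt2-205, a transcript with a retained intron that begins 12501 bp downstream of the main start. The shGFP peak there (chr17:34911939-34912526, 588 bp) was 964 bp from this start and the shLuc 2 peak (chr17:34911118-34911433, 316 bp) 143 bp from it, and the peaks did not overlap. They lay in sequence with a CpG ratio of 0.188 and 0.287 in shGFP and shLuc 2. So by starts of protein-coding transcripts alone, Ehmt2 had a promoter peak in 0 libraries, while its partner Ehmt1 had one in 4.

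The bases before the Ehmt2 start outside exons of Ehmt2 and of its upstream neighbour (RefSeq, GRCm38.p6, chr17:34898266-34898468, plus strand) are shown because no library lists a peak there. The stretch holds 13 CpG. Capitals mark GGGCGG and CACGTG, the E-box, which of the 10 promoters only this one holds.
Ehmt2: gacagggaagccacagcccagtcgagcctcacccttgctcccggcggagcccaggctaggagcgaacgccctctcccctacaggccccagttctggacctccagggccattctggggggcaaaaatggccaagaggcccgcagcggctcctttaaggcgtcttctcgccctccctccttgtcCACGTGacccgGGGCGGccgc

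**Figure D4:**
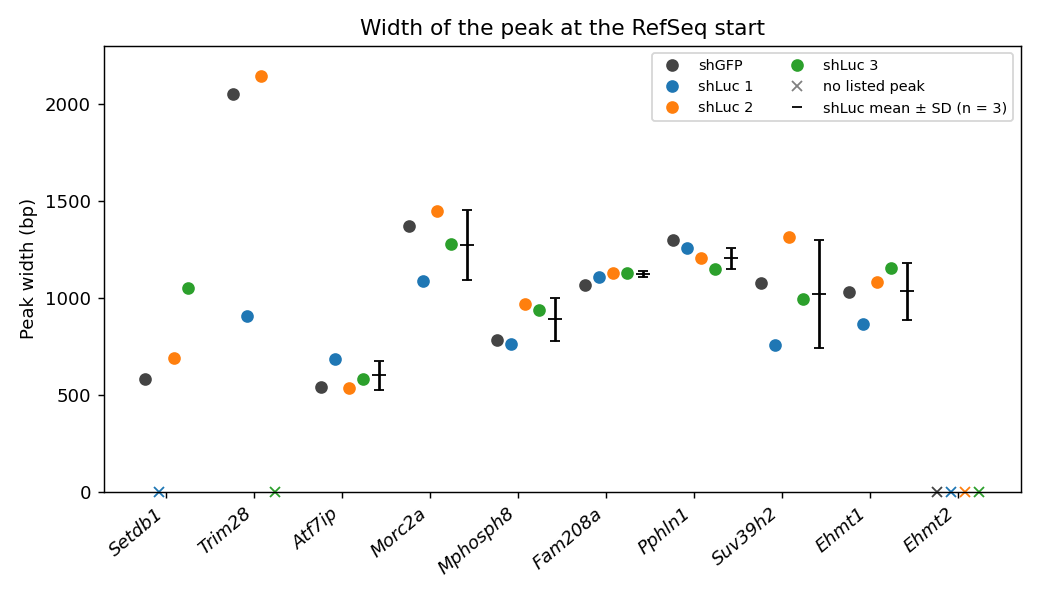
Width in bp (vertical axis) of the peak at the main start of each gene, with a point per library, a cross where a library lists no peak, and the mean ± SD of the 3 shLuc libraries where each lists a peak. The Fam208a points lie between 1069 and 1131 bp and the Suv39h2 points between 755 and 1314 bp.

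Across the 7 genes with a peak at the main start in all libraries, the shGFP width lay beyond the SD of the shLuc libraries for 2, Pphln1 above and Fam208a below, where 42.7% of the 6969 protein-coding genes did. The median difference, shGFP minus shLuc mean, was -5.33 bp for these 7 genes and 117 bp for the 6969. The widest promoter peak at any start, averaged over the 7 genes, was 1126 bp in shGFP and 932, 1117 and 1104 bp in shLuc 1, 2 and 3, and shGFP exceeded the shLuc mean by 74.6 bp, less than the SD of 103 bp. That difference came from Atf7ip, whose widest shGFP peak is the inner one, for at the main starts the mean difference over the 7 genes was 2.95 bp. For the widest peak at any start, the difference was -23.3 bp without shLuc 1 and 13.9 bp with the lists at equal length, over the genes with a promoter peak in all libraries used. The median widest over narrowest ratio was 1.27 for the 7 genes and 1.51 for the 6969. The library shLuc 1 had the narrowest peak at 4 of the 7 genes and at 74.0% of the 6969. The bases that all 4 peaks of a gene shared made up 57.5% of the merged peak for Suv39h2 and up to 83.0% for Fam208a, with 57.7% to 70.9% GC and a CpG ratio of 0.828 to 1.10.

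Promoter motifs were searched on both strands in the 250 bases before the main start of the 10 genes and of all 16810 matched genes. GGGCGG, the SP and KLF box, stood in 9 of the 10 promoters, all but that of Pphln1, against 44.2% of all and 71.8% of CpG-rich promoters. CCAAT, the NFY box, stood in 5, those of Setdb1, Atf7ip, Morc2a, Mphosph8 and Fam208a, against 36.4% and 35.4%. CCGGAAG, the ETS core, was found in Setdb1 alone (9.41% and 15.8%), CACGTG in Ehmt2 alone (6.86% and 9.90%) and TGACGTCA in Suv39h2 alone (2.07% and 3.36%). GCGCATGCG, the core that NRF1 binds, and AAGATGGCG, that of YY1, were in 0 of the 10 (2.03% and 3.79%, and 0.708% and 1.36%). Matches of different motifs did not overlap, and the GGGCGG matches of Morc2a overlapped each other. The counts describe letters in these windows and say nothing of bound factors.

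Peaks by an internal start, such as that of Atf7ip-207, were counted as promoter peaks. For peaks inside the genes and over 1 kb from all their starts, no share over all protein-coding genes was computed. Counted over the 10 genes, shGFP listed 5 of them and shLuc 1, 2 and 3 listed 2, 6 and 2 (mean 3.33 ± 2.31, SD, n = 3), and merging overlapping peaks gave 10 regions. The mean was 2 without shLuc 2, and with the lists at equal length the count was 0 in shGFP and the mean 1 in shLuc. Of the 10 regions 8 were found in 1 library, 1 in 3 and 1 in all 4, and 6 lay in introns. The region in all 4 lay in an intron of Ehmt1 (chr2:24911993-24912746), centred 7240 bp downstream of the main start. It was 654 bp wide in shGFP and 456, 567 and 450 bp in shLuc 1, 2 and 3. It had 43.0% GC, and 5.11% of its words of 50 bases recurred in the genome. Its CpG ratio of 0.115 was lower than at any promoter peak of the 10 genes. The region in 3 libraries lay near the end of Pphln1 (chr15:93489424-93489957), with 331 bp in shGFP, 479 bp in shLuc 2 and 360 bp in shLuc 3. A peak listed in shLuc 2 alone in an intron of Setdb1 (chr3:95343634-95344339, 706 bp) was 95.8% repeat sequence, and 72.8% of its words recurred, so its position is uncertain.

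The 269 bases that all 4 peaks share in the Ehmt1 intron (GRCm38.p6, chr2:24912291-24912559, printed on the minus strand, that of the gene) are shown because this was the only intronic region of the 10 genes in every library. They hold 2 CpG, none of the motifs above and so no capitals.
Ehmt1 intron: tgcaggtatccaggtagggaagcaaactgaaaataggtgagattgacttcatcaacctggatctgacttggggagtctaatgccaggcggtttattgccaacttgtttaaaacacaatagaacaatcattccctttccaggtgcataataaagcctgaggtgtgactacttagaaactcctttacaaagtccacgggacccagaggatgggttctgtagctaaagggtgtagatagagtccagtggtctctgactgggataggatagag

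Peaks within 50 kb outside the genes lay at the starts of other genes and away from them. For shGFP they numbered 33, and for shLuc 1, 2 and 3 they numbered 19, 32 and 25 (mean 25.3 ± 6.51, SD, n = 3). With the lists at equal length, shGFP had 19 and the shLuc mean was 18.3. The median over the 10 genes was 2.5 in shGFP and 1, 3 and 2 in shLuc 1, 2 and 3, and over all protein-coding genes 2, 1, 2 and 2. The 44 merged regions were found in 1 library for 14, in 2 for 10, in 3 for 7 and in all 4 for 13. Of the 44, 24 came within 1 kb of a start of another gene, and so did 12 of the 13 found in all 4 libraries. Over all protein-coding genes, counting a region once for each gene it lies by, the shares were 48.0% of 74773 and, for those in all 4 libraries, 78.4% of 24172. Ehmt1 had 8 regions, among them those at Arrdc1, Zmynd19, Dph7 and Cacna1b in all 4 libraries, whereas Mphosph8 had 1, a 300 bp peak of shLuc 3.

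The regions outside the genes that were found in 3 or 4 libraries and lay away from every start were 3, and each overlapped a coding exon of another gene. The one in all 4 libraries (chr7:12970678-12971600), centred at position -53013 from the Trim28 start, was 763 bp wide in shGFP and 695, 850 and 663 bp in shLuc 1, 2 and 3. All of it lay inside a coding exon of Zfp324 (chr7:12970214-12971634), a zinc finger gene, and none of its words of 50 bases recurred in the genome. Another (chr7:13043111-13044505), 1395 bp in shGFP, 750 bp in shLuc 1 and 1197 bp in shLuc 2, lay on the other side of Trim28 with 88.5% of its bases in a coding exon of Mzf1, also a zinc finger gene. The remaining region (chr15:93502728-93503806) lay beyond the end of Pphln1, with 78.5% of its bases in a coding exon of Prickle1. The coding exons were looked up after the regions were seen. The share of such regions that overlap a coding exon over all genes was not computed, so the count has no reference.

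**Figure D5:**
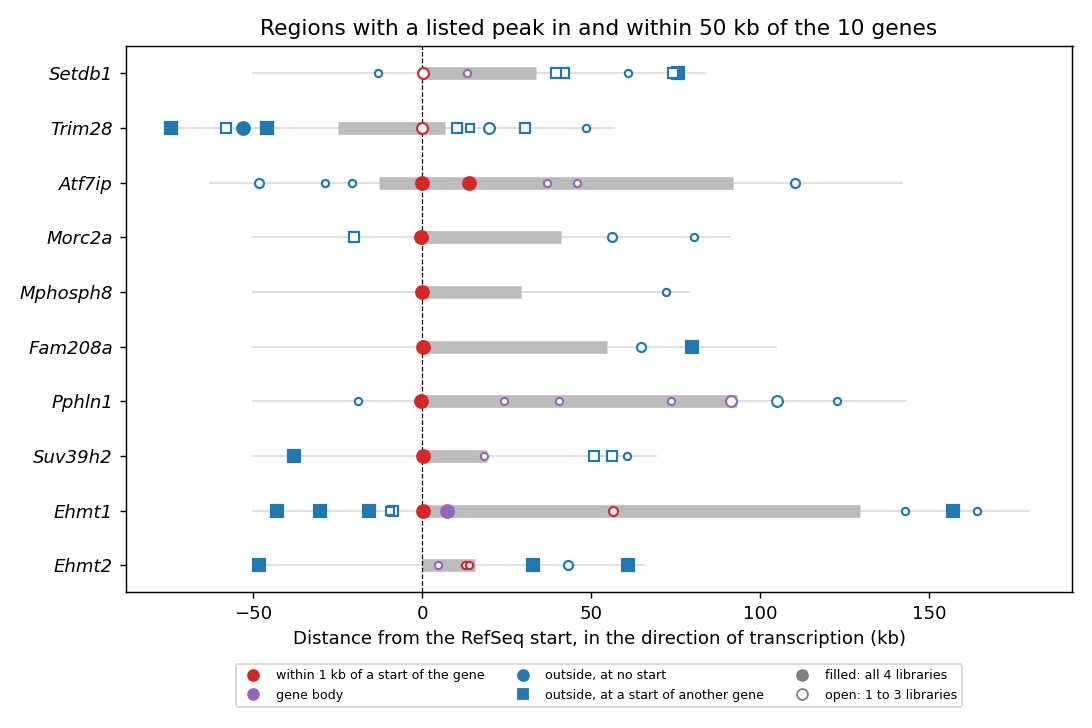
Merged regions with a listed peak in each gene (grey bar) and within 50 kb of it (thin line), against the distance from the main start in kb; colour gives the class, squares mark starts of other genes, and filled symbols mark regions in all 4 libraries. Filled symbols away from starts appear at 2 places, in an intron of Ehmt1 and upstream of Trim28.

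Most merged regions at these genes held no repeated word. Words had to match exactly, so copies with mismatches can be missed, and the share over all regions was not computed. Of the 67 merged regions, 57 had no word of 50 bases that occurs again in the genome, and of the 13 promoter regions 12 had none, Setdb1 being the exception with 59.2%. The region beyond Ehmt2 at Hspa1b (chr17:34958814-34959944), a heat shock gene with a close paralog beside it, had 38.1%.

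A list of 33 other heterochromatin genes was set beside the 10. Of these, 25 had a promoter peak at any start in all 4 libraries, 4 in 3, 2 in 2 and 2 in none. Among all protein-coding genes 42.5% had one in all 4, and among those with CpG-rich promoters 69.1% did at the main start. How many of the 33 have CpG-rich promoters was not counted. The genes with none were Chd4, the ATPase of the NuRD complex, and Morc2b, a paralog of Morc2a. The H3K9me3 methyltransferase genes Suv39h1 and Setdb2, the histone chaperone genes Atrx, Daxx, Chaf1a and Chaf1b and the G9a partner genes Wiz and Zfp644 all had one in every library. The HP1 gene Cbx1 had peaks of 496, 330 and 459 bp in shGFP, shLuc 1 and shLuc 2 and none in shLuc 3, while Cbx3, Cbx5 and the chromodomain gene Cdyl had one in each library. Trim33, a relative of Trim28, had peaks of 1961 bp in shGFP, 563 bp in shLuc 1 and 1668 bp in shLuc 2 and, like Trim28, none listed in shLuc 3. The KRAB zinc finger genes Zfp809 and Zfp568 lacked a listed peak in shLuc 1 alone. The demethylase gene Kdm1a had one in shLuc 1 and shLuc 2, and Kdm3b in shGFP and shLuc 1.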

How the data were processed

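For each library the authors deposited a separate peak list, without pooling. The values used are the deposited start and end positions, with no score or count. The submitters' processing notes name bcl2fastq, Bowtie2 and MACS2 and the build mm10. In the study's methods, under a heading that covers ChIP-seq and ATAC-seq, each read kept its best alignment, ties between places were broken at random, and only concordant pairs outside the mitochondrial genome were used, which makes peaks in repeated sequence uncertain. The peak threshold and any shift of reads for the transposase are not given in the sources used here.

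Positions were counted from 1. Overlap meant at least 1 bp. Starts came from GENCODE mouse release 21 and, for the main start, from RefSeq, where the table gives 16810 of 21938 protein-coding genes by symbol or synonym. Peaks of all libraries were merged where they overlapped. Repeats are the lower-case bases of the GRCm38.p6 reference. Words of 50 bases were counted on both strands of 21 chromosomes (numba 0.67.0), and the Setdb1 copy was aligned with blastn 2.17.0 within 150 kb. Python 3.11.15, numpy 2.4.6, scipy 1.17.1 and matplotlib 3.10.9 were used. On simulated data 2100 of 2100 genes and 199951 of 199951 word positions were classed as made. Named were all 10 genes, other genes with a start within 1 kb of their promoter peaks, the widest region away from every start in all libraries per gene, and listed heterochromatin genes with a promoter peak in fewer than 4 libraries; other names were chosen after their values were seen. Members and lists were chosen with earlier results of these data known. Alternatives changed the window, the starts, peak extents, list lengths and libraries.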

Additional observations from a re-analysis of the deposited data

How the results depend on the processing

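Of 60 values under alternatives for 9 results, 49 stayed, counts within 1.5 times and the width difference within the shLuc SD of 103 bp. That SD exceeds the main width difference of 74.6 bp, so a change of its sign also counted as stayed. The number of genes with a promoter peak in no library rose from 0 to 1, Ehmt2, with starts of protein-coding transcripts only, with the most upstream RefSeq start only (chosen after seeing the data) and with the widest 17860 peaks of each list. At that list length, peaks in gene bodies fell to 0 in shGFP and to a mean of 1 in shLuc, and peaks within 50 kb to 19 in shGFP and a mean of 18.3 in shLuc, since narrow peaks drop out of the longer lists, and Setdb1 had a promoter peak in 1 library and Atf7ip in 3. Peaks outside the genes numbered 16 in shGFP and a mean of 11.3 in shLuc within 25 kb, and 62 and 48 within 100 kb, by construction. Leaving out a shLuc replicate gave 2 to 4 body peaks, the lowest without replicate 2, 22 to 28.5 flank peaks, 8 to 9 genes with a promoter peak and 7 to 8 in all remaining libraries, and a width difference of -23.3 to 154.6 bp, negative without replicate 1. Leaving out Setdb1, also chosen after seeing the data, left 7 genes with a promoter peak in all libraries. No paired analysis was possible because shGFP has 1 library and no test was run. Depth is unknown from the lists, as is whether they hold every called peak, and both limit every absence.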
